A study of Homo sapiens with 12 samples.

Results

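The triple-negative breast cancer cell lines MDA-MB-468 and HCC1187 were compared with each other in the state in which they served as controls. The comparison used the control libraries only, which are 6 of the 12 libraries of the study, 3 for each line. The study itself transfected both lines for 48 h with short hairpin RNAs against the long non-coding RNA SOX9-AS1. Its control cells, used here, carried the genotype shCONTROL and received sh-LacZ, a hairpin against a bacterial gene that human cells lack. MDA-MB-468 grew in DMEM and HCC1187 in RPMI-1640, in both cases with 10% fetal bovine serum. Line, growth medium and deposited table go together in this design, so that differences between the lines cannot be told apart from differences between media or tables. Every group is a single established line, and nothing in the labels says that its 3 libraries came from separate cultures, so p-values measure only the spread between these libraries. The libraries are called S1 to S3 for MDA-MB-468 and S7 to S9 for HCC1187, after the library number in the count columns.

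Triple-negative tumours lack the oestrogen and progesterone receptors and ERBB2 amplification, and most of them are of the basal-like class. Basal-like cells are epithelial: they hold keratin filaments, adherens and tight junctions built on E-cadherin, EPCAM and claudins, and they usually express the basal keratins KRT5, KRT14 and KRT17, EGFR and a set of secreted proteins of the S100 and kallikrein families. MDA-MB-468 was established from a pleural effusion of a breast adenocarcinoma, and is known for an amplified EGFR gene and for losses at RB1 and SMAD4. HCC1187 was established from a primary ductal carcinoma. The labels call the cells of both lines basal-like.

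The MDA-MB-468 libraries held most basal markers at higher levels, and the libraries labelled HCC1187 differed from the basal-like label in many markers. Of 30 basal markers tested as described below, 22 were higher in MDA-MB-468 and 5 in the libraries labelled HCC1187. FOXC1 and LAMA3 were among these 5, and the keratins KRT8, KRT18 and KRT17 had reads in both lines. Luminal markers went the same way, with 17 of 22 tested higher in MDA-MB-468. These counts set the lines against each other and do not tell basal-like from luminal cells. Among the basal and luminal keratins KRT5, KRT6A, KRT6B, KRT7, KRT14, KRT15, KRT19 and KRT81, no gene had more than 3 counts over the 3 HCC1187-labelled libraries together, and GRHL2, a transcription factor that keeps cells epithelial, had 0 counts there. The same libraries held vimentin, N-cadherin, ZEB1 and ZEB2 at levels that MDA-MB-468 did not reach. They are therefore called the HCC1187-labelled libraries below, and no other cell type is assigned to them. In both lines SOX10, a marker of many basal-like tumours, had 0 counts.

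Library totals ran from 7906714 to 9790529 counts, with 20852 to 22942 genes detected. The share of counts in the 10 highest genes was 6.73% to 7.87% of the counts, and mitochondrially encoded genes held 6.40% to 7.01% in MDA-MB-468 and 4.39% to 5.21% in the HCC1187-labelled libraries. Across genes, log2 levels correlated at r = 0.9907 to 0.994 within MDA-MB-468, at 0.993 to 0.9939 within the HCC1187-labelled libraries and at 0.5933 to 0.6016 between the lines; genes are not independent replicates. No pair of libraries had identical counts, and the closest pair of a group differed by more than sampling noise, its chi-square divided by the degrees of freedom being 1.90. The biological coefficient of variation, the spread of a gene between replicates beyond counting noise, was 0.0817 in MDA-MB-468 and 0.0686 in the HCC1187-labelled libraries.

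The lines differed in a large share of their transcriptome. Counts were tested gene by gene with the quasi-likelihood test of edgeR, and a gene was called different at a Benjamini-Hochberg adjusted p under 0.05 and a fold of at least 2. Of 15592 genes tested, 7747 were called (49.7%). Of these, 4157 were higher in the HCC1187-labelled libraries (26.7% of the genes tested) and 3590 were higher in MDA-MB-468 (23%). These shares are the background for every count of list members given here. A gene present in a single line passed the filter on low counts through that line, so that the tested members of a list with many untested ones had to differ more often. By adjusted p alone the test passed 13108 genes (84.1%), and the libraries of the lines did not overlap for 84.4% of all genes tested. The differences were often large: 4288 genes were called at 4-fold or more and 2434 at 16-fold or more, 1397 of the latter higher in the HCC1187-labelled libraries and 1037 higher in MDA-MB-468. The median log2 difference over all genes, HCC1187-labelled minus MDA-MB-468, was 0.06 and the median absolute difference 0.99. With library totals alone as the scale, the median moved up by 0.23 and the split became 4876 against 2988, so that 62.0% in place of 53.7% of the called genes were higher in the HCC1187-labelled libraries. The share of genes called fell with abundance, from 73.8% in the fifth of genes with the lowest mean level to 34.7% in the fifth with the highest. The filter sets part of this trend, since a gene of low mean level passed it more easily when its counts lay in a single line. Long non-coding RNAs were called at 69.7% of 1487 tested and protein-coding genes at 47.1% of 13474. These 2 shares were not compared at like abundance.

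**Figure D1:**
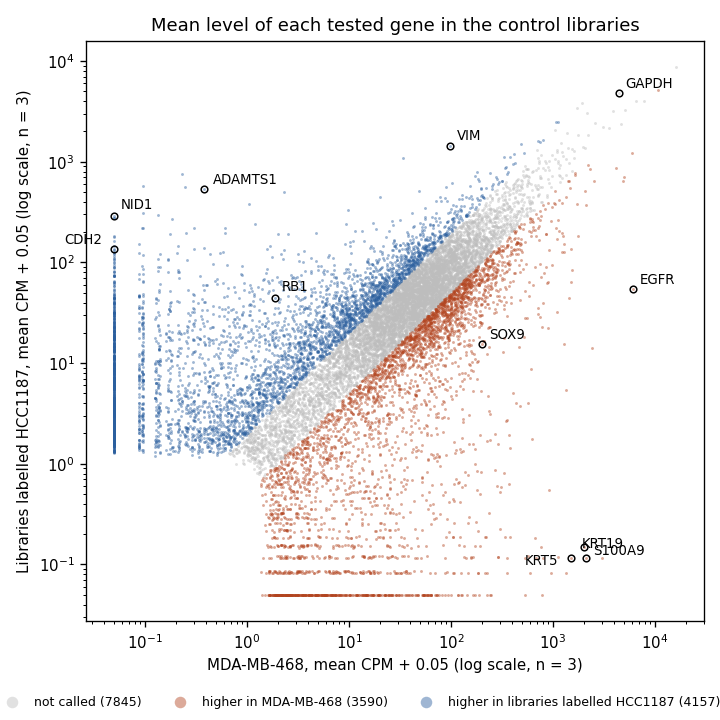
Mean level of each tested gene in the 3 MDA-MB-468 control libraries (horizontal) and the 3 HCC1187-labelled control libraries (vertical), in CPM plus 0.05 on log scales; colours mark called genes by direction, and some genes the text names are labelled. XIST and Y-linked genes are not drawn, and the points lined up along both axes are genes with 0 to a few counts in one of the lines.

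In what follows, levels are in CPM, the counts of a gene set against the library total and scaled with TMM, given as mean ± SD of 3 libraries, with MDA-MB-468 first and the HCC1187-labelled libraries second. A log2 difference is HCC1187-labelled minus MDA-MB-468 with its standard error. Where a line had at most 3 counts of a gene over its 3 libraries, the number of counts is given in place of a level. Against 0 counts, a fold is a lower bound set by a floor of 3 counts over the group, which is 0.102 CPM in the HCC1187-labelled libraries and 0.124 CPM in MDA-MB-468. Against 1 to 3 counts, a ratio is given with its exact 95% counting interval. Such intervals and floors cover counting error only.

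Genes at or under that floor in one line while expressed in the other were numerous. In the HCC1187-labelled libraries, 261 genes had at most 3 counts while MDA-MB-468 had at least 10 CPM; 130 of them had 0 counts and 47 reached 100 CPM or more in MDA-MB-468. In MDA-MB-468, 385 genes had at most 3 counts while the HCC1187-labelled libraries had at least 10 CPM; 244 of them had 0 counts and 31 reached 100 CPM or more in the other line. The 8 of highest CPM among the first kind included 3 keratin and 2 S100 genes. CASP14, a caspase of cornifying epidermis, had 2606, 2725 and 3694 CPM in S1 to S3 against 2 counts in all in S7 to S9, a ratio of 43838 (95% interval 12136 to 361990). KRT19 and KRT5, keratins of luminal and basal epithelium, followed at 2089 ± 196 CPM and 1507 ± 90.8 CPM in MDA-MB-468 against 2 counts each. S100A9, a subunit of the calcium-binding protein calprotectin, had 1817, 1909 and 2366 CPM against 3 counts in all, a ratio of 19743 (95% interval 6756 to 95737). RARRES1, a gene induced by retinoic acid, had 1333 ± 17.9 CPM against 1 count in all. KRT7, S100A6 and the glycoprotein gene OLFM4 completed the 8 of highest CPM, at 1133 ± 17.8 CPM, 953 ± 79.6 CPM and 794 ± 118 CPM against 1 or 2 counts each.

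The 8 genes of highest CPM among the second kind included secreted guidance and matrix proteins. SLIT2, a ligand of ROBO receptors in axon guidance, had 1 count in all in S1 to S3 and 562, 577 and 589.7 CPM in S7 to S9, a ratio of 13913 (95% interval 2497 to 549530). FKBP10, an endoplasmic reticulum protein that helps fold collagen, had 1 count in all against 308 ± 26.0 CPM. IGF2BP1, an oncofetal RNA-binding protein, had 2 counts in all against 297 ± 16.8 CPM. NID1, the basement membrane protein nidogen, had 0 counts against 291 ± 20.4 CPM and was at least 2340.3-fold higher. EEF1A2, the elongation factor isoform of neurons and muscle, had 0 counts against 276 ± 17.8 CPM and was at least 2221-fold higher. BEX3, a small X-linked protein expressed in brain, had 0 counts against 274 ± 8.05 CPM, EIF4G3, a translation initiation factor, 3 counts in all against 271 ± 15.1 CPM, and VCAN, a large matrix proteoglycan, 1 count in all against 221 ± 13.6 CPM.

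Some genes with at most 3 counts in one line lay side by side. For the runs that follow, no minimum level in the other line was set beyond the filter on low counts. They therefore also hold genes outside the groups just described. Runs of at least 4 neighbouring tested genes that all had at most 3 counts in one line numbered 31, 21 in MDA-MB-468 and 10 in the HCC1187-labelled libraries. The minimum length was chosen after the values were seen, and coordinates are those of GENCODE v29 on GRCh38. The longest run with no count was on chromosome 16, from 4510675 to 4960741, where 10 consecutive protein-coding genes (CDIP1, UBALD1, MGRN1, NUDT16L1, ANKS3, ZNF500, ROGDI, GLYR1, UBN1 and PPL) had 0 counts in S1, S2 and S3. In the HCC1187-labelled libraries the same 10 genes had means of 6.58 to 98.6 CPM. UBN1, a subunit of a histone H3.3 chaperone, had 96.4, 94.8 and 104.7 CPM in S7 to S9. GLYR1, a nucleosome-binding protein, had 105.5, 95.2 and 83.3 CPM, and MGRN1, a ubiquitin ligase, 59.0, 59.9 and 65.1 CPM. The genes on either side had reads in both lines: HMOX2, a haem oxygenase, had 4.67 ± 0.677 CPM against 31.9 ± 1.25 CPM and NMRAL1 31.3 ± 0.538 CPM against 1.03 ± 0.223 CPM before the run, and SEC14L5 had 26.3 ± 1.81 CPM against 1.43 ± 0.352 CPM and NAGPA 10.20 ± 1.95 CPM against 10.6 ± 1.47 CPM after it. UBN1, GLYR1 and MGRN1 are known to be expressed in most human tissues.

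A second run with no count in MDA-MB-468 was the HOXD cluster on chromosome 2, from 176092891 to 176190907, with 9 genes from HOXD13 to HOXD1 at 3.11 to 89.4 CPM in the HCC1187-labelled libraries. Further runs in MDA-MB-468 lay on the X chromosome, one with ARMCX3, ARMCX2 and BEX5 and one with BEX2, TCEAL9 and BEX3. Of the 10 runs with at most 3 counts per gene in the HCC1187-labelled libraries, 5 held keratin, S100, serpin or kallikrein genes: 8 genes from IVL to S100A5 in the epidermal differentiation region of chromosome 1 (152908545 to 153541765), 8 genes in the type I keratin cluster on chromosome 17 (40921430 to 41615899), KRT6B, KRT6A, KRT5, KRT4 and KRT79 on chromosome 12, 5 SERPINB genes on chromosome 18 and KLK5, KLK6 and KLK7 on chromosome 19. Another 8 genes, most of them of the MAGEA and CSAG families, lay on the X chromosome (152166234 to 152769747). The remaining 4 runs, of 4 genes each, held protocadherin genes from PCDHGB2 to PCDHGA7 on chromosome 5, KLRF1, CLEC7A, OLR1 and TMEM52B on chromosome 12, SLC6A2 and CES1 on chromosome 16, and CP and TM4SF1 on chromosome 3.

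The promoters of 4 of these genes are shown for their CG content. The 250 bases before the start are printed 5' to 3' on the strand of each gene, from RefSeq on GRCh38.p14, with CG dinucleotides in capitals. They come from 4 of the 31 runs, one gene each, do not stand for the other genes of the runs, and were chosen after the values were seen: KRT5 (chr12:52520395-52520644, minus strand) and S100A9 (chr1:153357604-153357853, plus strand) for runs with at most 3 counts in the HCC1187-labelled libraries, HOXD8 (chr2:176129455-176129704, plus strand) and UBN1 (chr16:4847231-4847480, plus strand) for runs with 0 counts in MDA-MB-468.
KRT5: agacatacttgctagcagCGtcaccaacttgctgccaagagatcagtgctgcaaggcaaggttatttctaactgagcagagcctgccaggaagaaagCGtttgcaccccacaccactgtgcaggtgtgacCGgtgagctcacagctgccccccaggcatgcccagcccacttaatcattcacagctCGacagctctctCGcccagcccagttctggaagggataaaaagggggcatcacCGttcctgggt
S100A9: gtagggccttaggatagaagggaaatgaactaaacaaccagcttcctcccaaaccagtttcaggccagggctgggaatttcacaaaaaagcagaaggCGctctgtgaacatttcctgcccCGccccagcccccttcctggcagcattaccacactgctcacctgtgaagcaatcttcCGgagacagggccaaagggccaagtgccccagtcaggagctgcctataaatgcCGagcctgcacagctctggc
HOXD8: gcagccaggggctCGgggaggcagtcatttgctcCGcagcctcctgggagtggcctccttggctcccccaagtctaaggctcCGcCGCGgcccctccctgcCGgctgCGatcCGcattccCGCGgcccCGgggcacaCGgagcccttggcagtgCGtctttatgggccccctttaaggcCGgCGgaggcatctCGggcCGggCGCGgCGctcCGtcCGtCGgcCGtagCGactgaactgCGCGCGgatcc
UBN1: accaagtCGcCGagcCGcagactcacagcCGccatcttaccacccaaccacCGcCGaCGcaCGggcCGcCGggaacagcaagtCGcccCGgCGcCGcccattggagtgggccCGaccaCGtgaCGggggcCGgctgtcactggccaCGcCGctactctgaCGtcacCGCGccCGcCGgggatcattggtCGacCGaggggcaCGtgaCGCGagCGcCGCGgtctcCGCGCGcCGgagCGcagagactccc
The KRT5 and S100A9 windows hold 6 and 4 CG dinucleotides, and 41.6% and 35.0% of the 27305 promoters in the table have as few or fewer. The HOXD8 and UBN1 windows hold 28 and 38, and 15.5% and 3.16% of all promoters have as many or more. The median over all promoters is 11. Of these 4 windows, that of S100A9 holds the letters TATAAA, searched on both strands, which 11.1% of all promoters hold. UBN1 and GLYR1 are transcribed away from each other, and their windows share 192 bases. These are descriptions of letters, and nothing here measured methylation or binding.

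SOX9 and SOX9-AS1, the subject of the study, were both higher in MDA-MB-468. SOX9, a transcription factor of stem and progenitor cells in many epithelia, had 228, 202 and 179 CPM in S1 to S3 and 13.99, 16.4 and 15.6 CPM in S7 to S9, so that every MDA-MB-468 library stood above every HCC1187-labelled one. The log2 difference was -3.73 ± 0.11 (adjusted p = 2.53e-18), or 13.3-fold. SOX9-AS1 had 6.003, 7.24 and 6.50 CPM against 2.33, 1.41 and 1.75 CPM, a log2 difference of -1.82 ± 0.24 (adjusted p = 4.08e-07). The gene of SOX9-AS1 (chromosome 17, 72034107 to 72237203, minus strand) spans SOX9 (chromosome 17, 72121020 to 72126420, plus strand). How the counting treated strand is not stated in the labels or notes used, so reads of one may be counted for the other. Of 97 other genes tested within 5 Mb of SOX9, 23 were higher in the HCC1187-labelled libraries and 21 higher in MDA-MB-468.

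Most tested epithelial genes were lower in the HCC1187-labelled libraries than in MDA-MB-468, though many kept reads there. Means under 1 CPM were seen there for 15 of 33 listed basal, 18 of 31 luminal and 10 of 36 junction and identity genes. In MDA-MB-468 the numbers were 6, 10 and 1. Of the basal markers, 30 of 33 listed genes were tested, of which 22 were higher in MDA-MB-468, 5 higher in the HCC1187-labelled libraries and 3 not called (90% called, median log2 difference -4.91, and -5.16 with genes at or under the floor set at their bound). Their summed level ran from 10636 to 10719 CPM in MDA-MB-468 and from 645 to 692 CPM in the HCC1187-labelled libraries. Most of the MDA-MB-468 sum came from 1 member, EGFR, with a mean of 6163 CPM there against 54.8 CPM. KRT5, the keratin that defines basal cells, had 1589, 1522 and 1409 CPM against 2 counts, a ratio of 22106 (95% interval 6119.6 to 182540). KRT14, its usual partner, had 21.5, 15.4 and 9.95 CPM against 1 count in all, with more spread between the MDA-MB-468 libraries than KRT5. KRT17, a stress-responsive keratin, kept 4.86, 9.63 and 11.4 CPM in S7 to S9 against 659, 620.1 and 569 CPM. KRT81, a hair keratin, had 244 ± 5.84 CPM against 0 counts and was at least 2377-fold higher in MDA-MB-468. TRIM29, a basal-cell ubiquitin ligase, had 381 ± 28.2 CPM against 0.139 ± 0.0673 CPM, and LAMB3, a chain of laminin-332 in the basement membrane, 108 ± 11.5 CPM against 0.376 ± 0.239 CPM. TP63, the master regulator of basal cells, was low in both, at 1.65 ± 0.139 CPM against 1 count in all. Against the list as a whole, FOXC1, a transcription factor of basal-like tumours, was higher in the HCC1187-labelled libraries at 87.0 ± 12.7 CPM against 183 ± 8.91 CPM, as were LAMA3 (28.4 ± 1.21 CPM against 101 ± 6.23 CPM) and the nerve growth factor receptor NGFR (2 counts in all against 9.70 ± 0.952 CPM). Without S3 the fold of FOXC1 fell under the minimum and it was not called.

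Of the luminal markers, 22 of 31 listed genes were tested, of which 17 were higher in MDA-MB-468, 2 higher in the HCC1187-labelled libraries and 3 not called (median log2 difference -5.41). KRT8 and KRT18, the keratin pair of simple epithelia, stayed present in both lines: KRT8 had 1689, 1738 and 1868 CPM against 181, 182 and 189.8 CPM and KRT18 922, 960.5 and 1026 CPM against 94.5, 91.2 and 95.2 CPM. ELF3, an epithelial ETS factor, had 286 ± 19.8 CPM against 0.557 ± 0.289 CPM and EHF, another, 227 ± 25.2 CPM against 1 count in all. CD24, a glycoprotein of luminal cells, had 871 ± 118 CPM against 62.1 ± 2.78 CPM and ALDH1A3, a retinal dehydrogenase used as a progenitor marker, 741 ± 20.9 CPM against 28.99 ± 1.39 CPM. GATA3, the luminal lineage factor, was not called, at 42.9 ± 1.64 CPM against 21.5 ± 1.55 CPM with a log2 difference of -0.99 ± 0.10. The receptor tyrosine kinase KIT, with 6.600 ± 1.06 CPM against 65.5 ± 11.2 CPM, and the carbonic anhydrase CA12, with 0.785 ± 0.105 CPM against 22.6 ± 1.22 CPM, were the members higher in the HCC1187-labelled libraries. The oestrogen receptor gene ESR1 was low in both, at 6.34 ± 1.36 CPM against 0.173 ± 0.163 CPM.

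Junction and epithelial identity genes went the same way: 35 of 36 listed genes were tested, of which 29 were higher in MDA-MB-468, 2 higher in the HCC1187-labelled libraries and 4 not called (88.6% called, median log2 difference -3.70). CDH1, which encodes E-cadherin, had 156, 153 and 149 CPM against 10.3, 9.41 and 8.83 CPM, a log2 difference of -3.999 ± 0.10 (adjusted p = 2.03e-19). EPCAM, an adhesion molecule of simple epithelia, had 431, 398 and 380.1 CPM against 3.69, 5.08 and 6.16 CPM, a log2 difference of -6.34 ± 0.12. The transcription factor GRHL2 had 118, 127 and 128 CPM against 0 counts and was at least 1208-fold higher in MDA-MB-468. ESRP1, the splicing regulator of epithelial isoforms, had 151 ± 10.3 CPM against 2.99 ± 0.831 CPM, and the membrane protease ST14 367 ± 15.96 CPM against 0.576 ± 0.128 CPM. CLDN4 and CLDN7, tight junction claudins, had 113 ± 8.09 CPM against 1.31 ± 0.373 CPM and 238 ± 34.7 CPM against 3.30 ± 0.331 CPM. The desmosomal plaque protein DSP kept a high level in both, at 1726 ± 92.8 CPM against 377 ± 6.50 CPM. TJP1, a scaffold of tight junctions that other cells also use, was not called at 116 ± 7.35 CPM against 102 ± 4.04 CPM. DSG2 and CLDN6, a desmosomal cadherin and an embryonic claudin, were higher in the HCC1187-labelled libraries, at 105.2 ± 2.85 CPM against 375 ± 17.2 CPM and 0.196 ± 0.174 CPM against 5.20 ± 0.472 CPM.

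Mesenchymal genes showed the opposite picture. Of these, 24 of 28 listed genes were tested, of which 4 were higher in MDA-MB-468, 18 higher in the HCC1187-labelled libraries and 2 not called (median log2 difference 4.27, and 4.32 with genes at or under the floor set at their bound). VIM, which encodes the intermediate filament vimentin, had 91.2, 92.3 and 112 CPM against 1347, 1372 and 1542 CPM, a log2 difference of 3.85 ± 0.09 (adjusted p = 1.94e-19). CDH2, which encodes N-cadherin, had 0 counts in MDA-MB-468 and 132, 137 and 139 CPM in S7 to S9, at least 1093-fold higher. The E-cadherin repressors ZEB1 and ZEB2 had 0.319 ± 0.218 CPM against 59.9 ± 3.39 CPM and 0 counts against 32.1 ± 0.742 CPM. SPARC, a secreted matrix protein, had 0.561 ± 0.285 CPM against 194 ± 13.1 CPM, and COL6A1, a collagen chain, 0.202 ± 0.178 CPM against 196 ± 14.1 CPM. The transcription factors SNAI2, TWIST1 and PRRX1 were low, at 3.45 ± 0.956 CPM, 13.1 ± 1.77 CPM and 3.62 ± 0.383 CPM against at most 3 counts in MDA-MB-468. TGFBI, LOXL2, COL6A3 and MSN went against the rest of the list and were higher in MDA-MB-468, TGFBI at 370.1 ± 98.2 CPM against 1.89 ± 0.361 CPM and LOXL2 at 239 ± 52.9 CPM against 54.2 ± 2.92 CPM. FN1, which encodes fibronectin, was not called, at 391 ± 22.1 CPM against 217 ± 37.9 CPM. In bulk libraries fewer cells of a kind and less RNA per cell cannot be told apart.

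Markers of fibroblasts, endothelium, blood and fat cells were mostly untested for want of counts. Of the 20 listed, 8 were tested, and their summed level was 109 to 163 CPM in MDA-MB-468 and 10.99 to 15.04 CPM in the HCC1187-labelled libraries. CD14, a co-receptor for bacterial lipopolysaccharide, made up most of the first sum at 104.8 ± 30.7 CPM against 0.398 ± 0.354 CPM. The defining markers CD3E, CD68, HBB and ADIPOQ had 0 counts in both lines and DCN, LYZ and HBA1 0 counts in MDA-MB-468, while PTPRC, CDH5 and TIE1 had 0 counts in the HCC1187-labelled libraries. There PDGFRA, LUM and PDGFRB had 3.15 ± 0.469 CPM, 3.801 ± 0.848 CPM and 1.51 ± 0.307 CPM. PDGFRB was not called without S1, nor by DESeq2.

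**Figure D2:**
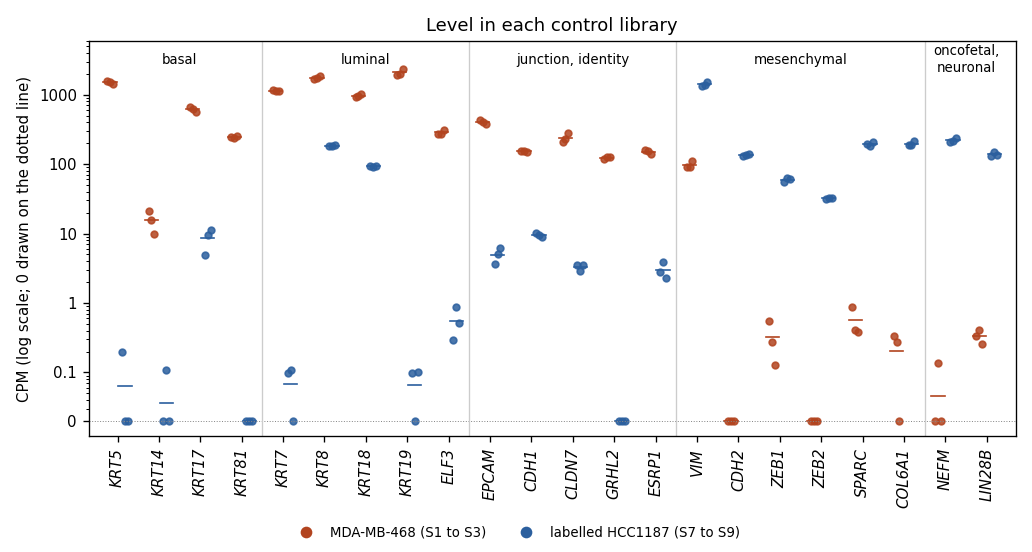
Level of selected epithelial, mesenchymal and oncofetal or neuronal genes in each of the 6 control libraries, in CPM on a log scale, with 0 on the dotted line; points are libraries and short bars the mean of 3. The libraries of the lines do not overlap for any gene drawn, which also holds for 84.4% of all genes tested. The spread within a line is widest where only a few counts were seen.

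Per unit of gene length, which allows genes to be compared with each other, mitochondrially encoded transcripts took 9 of the 10 highest places in each line. The exception in MDA-MB-468 was S100A9, in place 8 with 11123 length-scaled CPM against 0.714 in the other line. The exception in the HCC1187-labelled libraries was the glycolytic enzyme gene GAPDH, in place 9 with 8398 against 5785 in MDA-MB-468. On this scale KRT19 was the most abundant of the keratins examined in MDA-MB-468, at 2808 length-scaled CPM, followed by KRT5 at 1146 and KRT18 at 992. EGFR stood at 1546 length-scaled CPM in MDA-MB-468, above KRT18 and KRT8 but below KRT19. In the HCC1187-labelled libraries VIM stood at 1151 length-scaled CPM and KRT18, the highest there of the keratins examined, at 128.

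The S100 family separated the lines member by member. S100 proteins are small calcium sensors, and most of their genes lie in the epidermal differentiation region of chromosome 1. Of the family list, 16 of 20 listed genes were tested, of which 15 were higher in MDA-MB-468, 0 higher in the HCC1187-labelled libraries and 1 not called, where the uncalled one, S100PBP, is a binding partner and no S100 protein. S100A8 and S100A9, which pair to form calprotectin, had 353 ± 22.0 CPM against 2 counts in all and 2031 ± 294 CPM against 3 counts in all. S100A7, named psoriasin after the skin disease, had 845, 768 and 739 CPM against 0 counts, at least 7682-fold higher in MDA-MB-468. Its near copy S100A7A had 73.0 ± 1.69 CPM against 0 counts, and reads may be split between the pair. S100A6 had 971, 867 and 1023 CPM against 1 count. S100A10, S100A13 and S100A11 differed least among the called members, at 372 ± 38.2 CPM against 179 ± 4.65 CPM, 39.3 ± 0.784 CPM against 16.9 ± 0.436 CPM and 545 ± 39.4 CPM against 95.9 ± 8.28 CPM, and the calls of S100A10 and S100A13 did not hold with library totals as the scale, nor that of S100A10 without S3. A stretch of 20 consecutive tested genes around them on chromosome 1 (151982915 to 153631360) was called higher in MDA-MB-468, the longest such stretch found in either direction.

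Other secreted epithelial products followed. All 11 tested mucins and secreted luminal products were higher in MDA-MB-468, of 28 listed. The antiprotease SLPI had 287 ± 18.1 CPM against 2 counts in all, the matrix Gla protein gene MGP 574 ± 45.6 CPM against 2 counts in all, the iron-binding lipocalin LCN2 172 ± 3.06 CPM against 0 counts and the mucin MUC1 132 ± 11.99 CPM against 2.52 ± 0.519 CPM. Of the kallikrein proteases and serpins, 21 of 31 listed genes were tested, of which 16 were higher in MDA-MB-468, 3 higher in the HCC1187-labelled libraries and 2 not called. KLK5, a skin-type kallikrein, had 556, 515 and 536 CPM against 0 counts and was at least 5241-fold higher, and KLK6 had 139 ± 11.2 CPM against 2 counts in all. SERPINB5, the serpin maspin of mammary epithelium, had 15.9 ± 1.46 CPM against 1 count in all. The protease inhibitor SERPINE2 (14.3 ± 2.17 CPM against 33.3 ± 0.670 CPM) and the plasminogen activator PLAT (5.62 ± 0.685 CPM against 30.1 ± 0.9498 CPM) were higher in the HCC1187-labelled libraries.

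NF-kB chemokines, cytokines and feedback genes were higher in MDA-MB-468 almost without exception. NF-kB factors switch on inflammatory genes together with their own inhibitors. Of the list, 29 of 39 listed genes were tested, of which 27 were higher in MDA-MB-468, 1 higher in the HCC1187-labelled libraries and 1 not called (96.6% called, median log2 difference -5.08, and -5.28 with genes at or under the floor set at their bound). CXCL8, the neutrophil chemokine interleukin 8, had 90.9, 121 and 124 CPM against 0.389, 0.974 and 0.616 CPM, a log2 difference of -7.40 ± 0.20 (adjusted p = 1.57e-18). CX3CL1, a membrane-bound chemokine, had 178 ± 14.1 CPM against 0.493 ± 0.539 CPM, and the adhesion molecule ICAM1 329 ± 68.2 CPM against 0.757 ± 0.432 CPM. C3, a complement component made by inflamed epithelia, had 436 ± 13.3 CPM against 3.97 ± 0.461 CPM, and TNFAIP2 564 ± 37.2 CPM against 3.99 ± 0.529 CPM. Of the pathway's own parts, RELB had 40.3 ± 2.98 CPM against 2.70 ± 0.513 CPM, NFKB1 67.9 ± 4.54 CPM against 15.6 ± 1.88 CPM and the inhibitor NFKBIA 64.0 ± 11.9 CPM against 19.2 ± 1.30 CPM, while NFKB2 was not called at 59.8 ± 4.13 CPM against 52.2 ± 5.07 CPM. IL32, the exception, had 0.242 ± 0.0992 CPM against 1.30 ± 0.0928 CPM.

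Antigen presentation by MHC class I was higher in MDA-MB-468: 21 of 22 listed genes were tested, of which 17 were higher in MDA-MB-468, 1 higher in the HCC1187-labelled libraries and 3 not called. B2M, the invariant light chain, had 578, 643 and 604 CPM against 184, 208 and 212 CPM, a log2 difference of -1.59 ± 0.08. PSMB8 and PSMB9, subunits of the immunoproteasome, had 133 ± 10.98 CPM against 1.30 ± 0.205 CPM and 24.96 ± 3.54 CPM against 3.06 ± 0.553 CPM. HLA-C was not called at 421 ± 56.5 CPM against 264 ± 24.0 CPM, and class I genes are similar enough that reads may be split between them. The trimming peptidase ERAP2 was the exception at 8.49 ± 0.635 CPM against 51.7 ± 2.76 CPM. MHC class II genes were low and mostly of the other direction, with 9 tested, 2 higher in MDA-MB-468, 6 higher in the HCC1187-labelled libraries and 1 not called. HLA-DRB1 had 0 counts against 12.8 ± 1.41 CPM and HLA-DQB1 0 counts against 14.7 ± 1.31 CPM, while CTSS, the protease that processes the class II chaperone, had 23.7 ± 2.65 CPM against 1.51 ± 0.767 CPM.

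Interferon-stimulated genes did not move as a block. Of these, 38 of 40 listed genes were tested, of which 16 were higher in MDA-MB-468, 9 higher in the HCC1187-labelled libraries and 13 not called (65.8% called, median log2 difference -0.47). MX1, an antiviral GTPase, had 73.7 ± 11.9 CPM against 1.02 ± 0.323 CPM, IFITM3, which blocks viral entry, 231 ± 45.8 CPM against 22.1 ± 6.37 CPM and the transcription factor IRF1 86.9 ± 4.69 CPM against 9.62 ± 0.871 CPM. IFI6 (5.70 ± 1.92 CPM against 37.3 ± 11.7 CPM) and IFITM2 (3.95 ± 1.35 CPM against 30.3 ± 4.39 CPM) were higher in the HCC1187-labelled libraries. With library totals as the scale the interferon counts were 13 higher in MDA-MB-468 and 12 in the HCC1187-labelled libraries. Of immune checkpoint and NKG2D ligand genes, 7 were higher in MDA-MB-468 and 5 in the HCC1187-labelled libraries. VTCN1, the B7-H4 checkpoint ligand, had 224 ± 13.8 CPM against 0 counts and was at least 2194-fold higher in MDA-MB-468, while CD276, the B7-H3 ligand, had 56.6 ± 4.36 CPM against 145 ± 19.8 CPM.

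EGFR, the receptor of epidermal growth factor and a driver of growth in many carcinomas, was far higher in MDA-MB-468. It had 5961, 6109 and 6418 CPM in S1 to S3 and 52.8, 57.2 and 54.2 CPM in S7 to S9, a log2 difference of -6.81 ± 0.10 (adjusted p = 6.76e-23), or 113-fold. Its neighbours on chromosome 7 shared the direction. Within 5 Mb of EGFR, 22 other genes were tested, of which 19 were higher in MDA-MB-468 and 2 in the HCC1187-labelled libraries. Relative to all genes their median log2 difference was -4.26 ± 0.09 (SD over libraries). SEC61G, a subunit of the protein translocation channel next to EGFR, had 1616, 1511 and 1227 CPM against 43.6, 45.5 and 43.8 CPM. On the other side LANCL2 had 1285 ± 140.1 CPM against 15.5 ± 2.96 CPM and VOPP1 1099 ± 87.4 CPM against 32.3 ± 3.34 CPM. A little further, CCT6A, a chaperonin subunit, had 2120.4 ± 43.8 CPM against 376 ± 4.12 CPM, CHCHD2, a mitochondrial protein, 1111 ± 23.8 CPM against 264 ± 24.0 CPM, and NIPSNAP2 255 ± 1.82 CPM against 107 ± 11.3 CPM. Of the genes beyond these, NUPR2 had 3.93 ± 0.801 CPM against 0 counts. In all, 19 consecutive tested genes (54752250 to 56291425) were called higher in MDA-MB-468. Several of them are pseudogenes or near copies of genes elsewhere (PSPHP1, FKBP9P1), whose counts are uncertain. The 2 exceptions lay farther off: the adaptor GRB10, with 47.9 ± 1.83 CPM against 97.0 ± 3.92 CPM, and COBL, an actin nucleator, with 0 counts against 31.2 ± 1.23 CPM. GRB10 lay close to the fold minimum and was not called without S1, without S2 or without S7.

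Around other genes known to be altered in MDA-MB-468, neighbours were called in both directions. RB1, the retinoblastoma tumour suppressor, had 2.22, 1.64 and 1.66 CPM against 47.1, 45.9 and 41.1 CPM, a log2 difference of 4.58 ± 0.17 (adjusted p = 1.60e-16). Of 56 other genes within 5 Mb, 19 were higher in the HCC1187-labelled libraries and 9 in MDA-MB-468. SMAD4, the shared transducer of TGF-beta and BMP signals, had 0.445, 0.410 and 0.510 CPM against 54.4, 64.0 and 63.2 CPM, a log2 difference of 7.01 ± 0.20 (adjusted p = 3.05e-18), and 8 of 33 neighbours were higher in the HCC1187-labelled libraries against 5 in MDA-MB-468.

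EGFR ligands and partners were mixed, with 13 tested, 5 higher in MDA-MB-468, 4 higher in the HCC1187-labelled libraries and 4 not called. With library totals as the scale the counts were 4 and 4. TGFA, the ligand best known for autocrine use, had 58.5 ± 3.61 CPM against 1.99 ± 0.245 CPM, and AREG, amphiregulin, 6.99 ± 1.38 CPM against 3 counts in all. The heparin-binding ligand HBEGF had 6.29 ± 1.39 CPM against 12.7 ± 0.794 CPM and the neuregulin NRG3 0 counts against 11.3 ± 0.570 CPM. Without S3, or without S9, HBEGF was not called. The partner receptors ERBB2 and ERBB3 were not called, at 60.7 ± 4.12 CPM against 91.0 ± 4.02 CPM and 70.7 ± 3.95 CPM against 44.1 ± 2.24 CPM. Of the other receptor tyrosine kinases, 28 of 30 listed genes were tested, of which 6 were higher in MDA-MB-468, 14 higher in the HCC1187-labelled libraries and 8 not called. EPHA7, an ephrin receptor, had 0 counts against 90.5 ± 1.80 CPM and was at least 728-fold higher in the HCC1187-labelled libraries, FGFR3 had 1.39 ± 0.387 CPM against 66.6 ± 5.79 CPM, IGF1R 42.5 ± 1.80 CPM against 170.5 ± 10.22 CPM and MERTK 2.47 ± 0.252 CPM against 36.8 ± 2.71 CPM. DDR1, the collagen receptor of epithelia, was higher in MDA-MB-468 at 1499 ± 35.1 CPM against 64.4 ± 6.09 CPM, as was ROR1 at 87.0 ± 7.47 CPM against 13.96 ± 1.60 CPM.

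Immediate-early and MAPK feedback genes, which growth factor signals switch on within minutes to hours, were mostly higher in MDA-MB-468: 24 of 26 listed genes were tested, of which 14 were higher in MDA-MB-468, 3 higher in the HCC1187-labelled libraries and 7 not called. IER3 had 703, 728 and 919 CPM against 21.7, 25.2 and 22.2 CPM. DUSP4 and DUSP6, phosphatases that switch off ERK, had 95.2 ± 8.96 CPM against 12.9 ± 0.350 CPM and 17.96 ± 1.74 CPM against 5.29 ± 1.13 CPM, the feedback inhibitor SPRY4 33.1 ± 4.16 CPM against 2.84 ± 0.256 CPM, and the AP-1 subunit FOSL1 45.7 ± 10.7 CPM against 5.18 ± 0.397 CPM. The 3 genes of the opposite direction were JUN (89.1 ± 8.49 CPM against 565 ± 38.2 CPM), the stress factor ATF3 (13.4 ± 1.19 CPM against 206 ± 47.1 CPM) and the stress phosphatase DUSP1 (4.93 ± 0.477 CPM against 91.1 ± 11.1 CPM). YAP and TAZ, the effectors of the Hippo pathway, and their targets gave 20 tested, 9 higher in MDA-MB-468, 3 higher in the HCC1187-labelled libraries and 8 not called. WWTR1, which encodes TAZ, had 146 ± 4.92 CPM against 51.3 ± 0.899 CPM and YAP1, not called, 213 ± 21.6 CPM against 128 ± 6.22 CPM. The target gene F3, tissue factor, had 130.0 ± 15.3 CPM against 5.47 ± 0.457 CPM, and ANKRD1 7.34 ± 3.38 CPM against 46.9 ± 4.67 CPM.

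RB pathway and cyclin genes gave 25 tested, 4 higher in MDA-MB-468, 8 higher in the HCC1187-labelled libraries and 13 not called. The share called, 48%, was near the 49.7% of all genes tested. The D cyclins, partners of CDK4 and CDK6, differed in opposite directions. CCND1 had 361, 393 and 409 CPM against 50.8, 45.7 and 40.2 CPM, and CCND2 had 0 counts against 61.3, 65.6 and 91.1 CPM, at least 584-fold higher in the HCC1187-labelled libraries. CDK2, the kinase of the G1 to S transition, had 42.9 ± 1.40 CPM against 159 ± 8.46 CPM and the CDK inhibitor CDKN1A 32.5 ± 3.54 CPM against 87.6 ± 7.94 CPM. Tumour suppressor genes of breast cancer were called for 7 of 22 tested. Among them TBX3, a T-box factor of mammary development, had 0 counts against 73.3 ± 5.86 CPM and KEAP1, the adaptor that degrades NRF2, 247 ± 11.4 CPM against 54.6 ± 1.34 CPM.

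Genes of the TGF-beta and BMP pathway, in which SMAD4 acts, gave 34 tested, 5 higher in MDA-MB-468, 12 higher in the HCC1187-labelled libraries and 17 not called. The share called, 50%, was near the 49.7% of all genes tested. Of the ligands, TGFB2 had 128 ± 13.9 CPM against 3.48 ± 1.10 CPM and INHBA, an activin subunit, 44.4 ± 6.14 CPM against 2.48 ± 0.467 CPM in favour of MDA-MB-468, while BMP2 (3.74 ± 1.01 CPM against 35.4 ± 2.28 CPM) and TGFB1 (12.1 ± 1.17 CPM against 34.7 ± 3.91 CPM) were higher in the HCC1187-labelled libraries. Of the receptors, TGFBR2 had 60.6 ± 1.61 CPM against 23.8 ± 3.41 CPM and the co-receptor TGFBR3 2.46 ± 0.925 CPM against 46.0 ± 3.36 CPM. Of the transducers and inhibitors, SMAD9 had 3 counts in all against 32.8 ± 2.59 CPM, SMAD6 18.3 ± 3.68 CPM against 72.3 ± 11.5 CPM and the BMP target ID2 21.3 ± 5.31 CPM against 110.5 ± 3.06 CPM. SMAD2 and SMAD3 were not called, at 82.8 ± 5.77 CPM against 53.9 ± 3.33 CPM and 78.0 ± 3.65 CPM against 91.4 ± 5.79 CPM.

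Where called, replication genes were mostly higher in the HCC1187-labelled libraries, and mitosis genes were mostly uncalled. The shares called were 44.4% for replication, 25% for mitosis and 43.3% for repair genes, all under the 49.7% of all genes tested. Of the replication genes, 36 of 36 listed genes were tested, of which 1 were higher in MDA-MB-468, 15 higher in the HCC1187-labelled libraries and 20 not called (median log2 difference 0.64). MCM2 and MCM4, subunits of the replicative helicase, had 118 ± 9.72 CPM against 325 ± 12.8 CPM and 198 ± 19.97 CPM against 550.5 ± 29.8 CPM, CDC6, which loads it, 78.8 ± 10.7 CPM against 254 ± 9.19 CPM and RFC5, a clamp loader subunit, 32.0 ± 2.66 CPM against 119 ± 3.27 CPM. RRM2, a subunit of ribonucleotide reductase, was the exception at 521 ± 116 CPM against 241 ± 16.3 CPM (a call that did not hold with library totals as the scale), while its partner RRM1 had 162 ± 16.3 CPM against 423 ± 3.83 CPM. Of the mitosis genes, 36 of 36 listed genes were tested, of which 3 were higher in MDA-MB-468, 6 higher in the HCC1187-labelled libraries and 27 not called. TOP2A, which untangles chromosomes, had 381 ± 48.2 CPM against 1121 ± 42.7 CPM and the checkpoint kinase BUB1 101 ± 4.40 CPM against 337 ± 5.20 CPM. MKI67, which encodes the proliferation marker Ki-67, was not called, at 559.7, 558 and 516 CPM against 747, 687 and 794 CPM. DNA repair genes gave 30 tested, 3 higher in MDA-MB-468, 10 higher in the HCC1187-labelled libraries and 17 not called, with FANCD2 at 36.6 ± 3.01 CPM against 156 ± 3.56 CPM, PARP1 at 337 ± 1.72 CPM against 864 ± 14.6 CPM and XRCC3 at 6.91 ± 1.02 CPM against 77.1 ± 4.06 CPM. With library totals as the scale, 0 repair genes were called higher in MDA-MB-468 and 11 in the HCC1187-labelled libraries.

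Notch genes, which pass signals between touching cells, were called in both directions. Of the list, 24 of 24 listed genes were tested, of which 5 were higher in MDA-MB-468, 9 higher in the HCC1187-labelled libraries and 10 not called. The receptors NOTCH3 (1488 ± 75.2 CPM against 136 ± 9.94 CPM) and NOTCH1 (83.5 ± 5.36 CPM against 26.5 ± 2.89 CPM) and the ligand JAG1 (154 ± 7.37 CPM against 60.2 ± 5.32 CPM) were higher in MDA-MB-468. The ligands JAG2 (6.06 ± 1.75 CPM against 55.0 ± 6.80 CPM) and DLL1 (2 counts in all against 13.4 ± 0.475 CPM), the DNA-binding partner RBPJ (62.4 ± 12.4 CPM against 241 ± 27.2 CPM) and the target genes HEY1 (2.94 ± 0.633 CPM against 69.7 ± 3.13 CPM), HEY2 (1.69 ± 0.207 CPM against 16.7 ± 0.623 CPM) and HEYL (0.176 ± 0.153 CPM against 19.4 ± 0.450 CPM) were higher in the HCC1187-labelled libraries, as was the sparse receptor gene NOTCH4 (0.557 ± 0.346 CPM against 1.64 ± 0.268 CPM), whose call did not hold with the fold minimum inside the test. NOTCH2 was not called, at 255 ± 18.4 CPM against 247 ± 4.84 CPM, and the target HES1 was not called either, at 70.6 ± 4.78 CPM against 44.6 ± 3.09 CPM.

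Wnt pathway genes also split by member, with 39 tested, 8 higher in MDA-MB-468, 16 higher in the HCC1187-labelled libraries and 15 not called. The ligands WNT7B (74.3 ± 3.39 CPM against 3.17 ± 0.446 CPM), WNT6 (107 ± 15.6 CPM against 1.60 ± 0.128 CPM) and WNT10A (26.5 ± 2.48 CPM against 2 counts in all) were higher in MDA-MB-468. WNT5A, a ligand of non-canonical signalling, had 2.88 ± 1.48 CPM against 38.3 ± 3.03 CPM and WNT5B 1.56 ± 0.208 CPM against 16.46 ± 2.09 CPM. LEF1, a DNA-binding partner of beta-catenin, had 0 counts against 23.8 ± 3.30 CPM, and the pathway targets and inhibitors LGR5, NKD2 and NOTUM had 8.54 ± 1.10 CPM, 26.4 ± 0.694 CPM and 7.16 ± 1.80 CPM against 0 counts each in MDA-MB-468. AXIN2, a widely used target gene, was not called at 18.1 ± 1.89 CPM against 10.5 ± 1.76 CPM. The decoy SFRP1 was higher in MDA-MB-468, at 297 ± 4.86 CPM against 42.8 ± 1.65 CPM.

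SOX factors differed member by member. Of the list, 14 genes were tested, 6 higher in MDA-MB-468 and 6 higher in the HCC1187-labelled libraries, which became 5 and 7 with library totals as the scale. Beside SOX9, SOX11 was higher in MDA-MB-468 at 29.01, 26.2 and 19.3 CPM against 3 counts in all, a ratio of 244 (95% interval 83.5 to 1183). SOX8, a close relative of SOX9, had 0 counts against 13.6, 13.52 and 12.02 CPM. SOX5 and SOX6, partners of SOX9 in cartilage, had 2 counts in all against 6.36 ± 0.889 CPM and 3 counts in all against 10.4 ± 1.44 CPM. SOX2, the pluripotency factor, was low at 0 counts against 2.66 ± 0.0621 CPM, and SOX4, a factor of many carcinomas, was not called at 174 ± 21.2 CPM against 267 ± 29.8 CPM.

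HOX genes, which set position along the body axis, were higher in the HCC1187-labelled libraries cluster by cluster except for HOXC. All 8 tested HOXD genes had 0 counts in MDA-MB-468. HOXD10 reached 88.5, 91.0 and 88.8 CPM in S7 to S9 and HOXD13 49.0, 50.1 and 48.0 CPM, bounds of at least 719.9-fold and 395-fold. Of 11 tested HOXA genes 9 were higher in the HCC1187-labelled libraries and none in MDA-MB-468. HOXA13 had 0.486 ± 0.320 CPM against 35.9 ± 4.55 CPM, HOXA10 7.13 ± 0.673 CPM against 47.4 ± 1.73 CPM and HOXA9 3 counts in all against 30.9 ± 3.12 CPM, while HOXA3, towards the other end of the cluster, was not called, at 8.71 ± 1.44 CPM against 10.8 ± 1.23 CPM. Of 9 tested HOXB genes 7 were higher there, with HOXB9 at 0 counts against 111, 95.6 and 126 CPM. Of 8 tested HOXC genes, 3 were higher in the HCC1187-labelled libraries, among them HOXC4 (1.53 ± 0.223 CPM against 28.1 ± 2.49 CPM), and 2 in MDA-MB-468, HOXC10 (24.4 ± 3.49 CPM against 9.04 ± 0.858 CPM) and HOXC12 (14.5 ± 0.444 CPM against 5.73 ± 0.262 CPM). HOX antisense RNAs overlap these genes and their reads may be shared. Other developmental factors in long called stretches, chosen after their values were seen, were NKX2-1, a lung and thyroid factor, at 0 counts against 17.4 ± 2.97 CPM, GATA4, a heart and endoderm factor, at 0 counts against 22.5 ± 2.92 CPM, and HAND2 at 0 counts against 9.05 ± 0.789 CPM.

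Oncofetal and neuronal genes were mostly higher in the HCC1187-labelled libraries, with 22 tested, 2 higher in MDA-MB-468, 15 higher in the HCC1187-labelled libraries and 5 not called (median log2 difference 3.24). LIN28B, which blocks the maturation of let-7 microRNAs, had 0.334, 0.410 and 0.255 CPM against 131, 152 and 133 CPM, a log2 difference of 8.65 ± 0.18 (adjusted p = 1.63e-20). HMGA2 and IGF2BP3, genes that let-7 represses, had 1.99 ± 0.410 CPM against 64.5 ± 7.07 CPM and 15.5 ± 0.529 CPM against 107 ± 8.81 CPM. The neurofilament genes NEFM and NEFL had 1 count in all against 219 ± 13.6 CPM and 0 counts against 115 ± 8.11 CPM. UCHL1, a neuronal ubiquitin hydrolase, had 4.65 ± 0.402 CPM against 198 ± 16.2 CPM, the neuronal enolase ENO2 9.29 ± 2.91 CPM against 244 ± 30.9 CPM, and the neural adhesion molecule NCAM1 3.62 ± 1.07 CPM against 44.9 ± 1.77 CPM. Classical neuroendocrine markers were sparse: INSM1 had 0 counts against 6.35 ± 0.993 CPM and SYP 0.601 ± 0.376 CPM against 9.01 ± 1.55 CPM, and CHGA and CHGB did not pass the filter on low counts. PEG10, an imprinted gene derived from a retrotransposon, was higher in MDA-MB-468 at 149 ± 39.5 CPM against 1.52 ± 0.649 CPM. Of the microRNA processing genes, which also handle short hairpin RNAs, 16 of 20 were not called, among them DICER1 (111 ± 10.25 CPM against 220.4 ± 12.2 CPM) and DROSHA (111 ± 2.63 CPM against 139 ± 0.487 CPM). AGO2, the slicing Argonaute, had 106 ± 8.64 CPM against 248 ± 18.5 CPM.

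Cancer-testis antigens, normally confined to germ cells, were higher in MDA-MB-468 for 7 of 9 tested, out of 44 listed. MAGEA3, MAGEA6 and MAGEA12 had 249.7 ± 1.71 CPM, 214 ± 4.48 CPM and 156 ± 4.43 CPM against 0, 1 and 2 counts. MAGEA genes are near copies of one another, so reads may be split between them. PRAME, from a different family, had 1 count in all against 9.67 ± 1.109 CPM.

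Cell-matrix genes differed by member. Of the integrins and laminins, 30 of 31 listed genes were tested, of which 17 were higher in MDA-MB-468, 8 higher in the HCC1187-labelled libraries and 5 not called. The hemidesmosomal receptor chain ITGB4 had 112 ± 3.90 CPM against 5.24 ± 0.616 CPM and the epithelial integrin ITGB6 145 ± 6.10 CPM against 0 counts. LAMA1, the embryonic laminin chain, had 3 counts in all against 81.0 ± 4.32 CPM, LAMC1 156 ± 8.18 CPM against 454 ± 20.7 CPM and ITGA7, a laminin receptor of muscle, 0.708 ± 0.0975 CPM against 27.7 ± 3.26 CPM. Metalloproteases and inhibitors were nearly all higher in the HCC1187-labelled libraries where called, with 21 tested, 1 higher in MDA-MB-468, 13 higher in the HCC1187-labelled libraries and 7 not called. ADAMTS1, which cleaves proteoglycans, had 0.334, 0.273 and 0.383 CPM against 463, 515 and 641 CPM, a log2 difference of 10.61 ± 0.20. MMP2, a gelatinase, had 3.86 ± 0.417 CPM against 35.4 ± 3.46 CPM and its inhibitor TIMP3 10.9 ± 3.59 CPM against 77.4 ± 5.09 CPM, while MMP7, matrilysin of epithelia, had 41.9 ± 0.432 CPM against 0 counts.

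Metabolic lists differed in the share of members called, which for several lay near or under the 49.7% of all genes tested. It was 50% for cholesterol, 52% for glycolysis, 56% for serine and 56.25% for gluconeogenesis, urea and creatine genes. It was 37% for fatty acid oxidation and 26.7% for TCA cycle and glutamine genes, but 70.8% for the pentose phosphate and NRF2 list. The pentose phosphate and NRF2 list was higher in MDA-MB-468, with 24 tested, 16 higher in MDA-MB-468, 1 higher in the HCC1187-labelled libraries and 7 not called (median log2 difference -1.68). AKR1C2 and AKR1B10, aldo-keto reductases under NRF2 control, had 678 ± 90.1 CPM against 2 counts in all and 133 ± 9.69 CPM against 3 counts in all, and NQO1, the quinone reductase, had 373, 346 and 318 CPM against 2.72, 2.38 and 2.77 CPM. NFE2L2, which encodes NRF2, had 211 ± 9.19 CPM against 54.0 ± 3.24 CPM. HMOX1, haem oxygenase, was the exception at 30.0 ± 3.29 CPM against 84.4 ± 14.98 CPM. AKR1C genes are near copies of each other, so their reads may be split. Glutathione and aldehyde enzymes gave 28 tested, 13 higher in MDA-MB-468, 6 higher in the HCC1187-labelled libraries and 9 not called, with ALDH3B2 at 538 ± 20.8 CPM against 2 counts in all, CYP1B1, a target of the aryl hydrocarbon receptor, at 721 ± 70.5 CPM against 30.9 ± 0.589 CPM, and ALDH1A1 at 94.8 ± 16.1 CPM against 0.371 ± 0.193 CPM.

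Serine synthesis and amino acid genes were more often called higher in MDA-MB-468, with 25 tested, 11 higher in MDA-MB-468, 3 higher in the HCC1187-labelled libraries and 11 not called. PHGDH, the first enzyme of serine synthesis, had 634 ± 23.1 CPM against 227 ± 19.4 CPM and PSAT1 225 ± 4.88 CPM against 56.5 ± 2.32 CPM. PSPH, which lies in the called stretch around EGFR described above, had 188 ± 6.29 CPM against 18.2 ± 2.62 CPM. ASS1, the arginine synthesis enzyme, had 581 ± 15.3 CPM against 45.9 ± 6.23 CPM, whereas ASNS, asparagine synthetase, had 1.77 ± 0.739 CPM against 5.23 ± 1.61 CPM. Fatty acid synthesis genes leaned the other way, with 31 tested, 6 higher in MDA-MB-468, 15 higher in the HCC1187-labelled libraries and 10 not called. FADS1 and FADS2, desaturases of polyunsaturated fatty acids, had 3.498 ± 0.359 CPM against 102 ± 1.501 CPM and 3.18 ± 0.791 CPM against 64.8 ± 4.06 CPM, SCD, the stearoyl desaturase, 183 ± 14.3 CPM against 673 ± 72.4 CPM and ACSL4, which activates polyunsaturated fatty acids, 24.6 ± 1.76 CPM against 204 ± 13.4 CPM. FASN, fatty acid synthase, was not called, at 462 ± 16.54 CPM against 589 ± 66.9 CPM.

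Among glycolysis genes isoforms differed while several main enzymes were not called, with 25 tested, 4 higher in MDA-MB-468, 9 higher in the HCC1187-labelled libraries and 12 not called. SLC2A1 and SLC2A3, glucose transporters, were opposite: SLC2A1 had 342, 362 and 391 CPM against 92.5, 94.4 and 109.6 CPM and SLC2A3 0.111, 0.546 and 2.81 CPM against 195, 225 and 308 CPM. The brain isoform ALDOC had 1.48 ± 0.749 CPM against 78.0 ± 14.6 CPM and the lactate dehydrogenase chain LDHB 4.98 ± 2.44 CPM against 64.4 ± 2.35 CPM, while LDHA was not called at 1754 ± 98.8 CPM against 1846 ± 127 CPM, nor was GAPDH at 4415 ± 263 CPM against 4799.8 ± 821 CPM or PKM at 1536 ± 90.7 CPM against 1354 ± 149.7 CPM. Hypoxia-induced genes were split in the same manner, with 20 tested, 5 higher in MDA-MB-468, 9 higher in the HCC1187-labelled libraries and 6 not called. CA9, a carbonic anhydrase, had 309 ± 66.5 CPM against 0.544 ± 0.603 CPM and its relative CA12 0.785 ± 0.105 CPM against 22.6 ± 1.22 CPM, the angiogenic factor VEGFA 274 ± 65.1 CPM against 79.9 ± 12.8 CPM and the collagen hydroxylase P4HA1 31.8 ± 5.21 CPM against 266 ± 33.5 CPM.

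Among cholesterol genes the balance depended on the scale: 8 of 28 were higher in MDA-MB-468 and 6 in the HCC1187-labelled libraries, against 5 and 8 with library totals. INSIG1, the sterol-regulated brake on SREBP, had 16.96 ± 8.39 CPM against 246 ± 43.8 CPM. Gluconeogenesis, urea and creatine genes shifted likewise, from 4 and 5 to 3 and 6. CKB, the brain-type creatine kinase, had 32.0, 31.5 and 37.6 CPM against 1005, 967 and 1303 CPM, and PCK1, the cytosolic gluconeogenic enzyme, had 0 counts against 41.9, 71.1 and 104.9 CPM. Of the TCA cycle and glutamine genes 22 of 30 were not called, with PC, pyruvate carboxylase, at 110.1 ± 5.11 CPM against 10.23 ± 0.913 CPM and FH, fumarase, at 267 ± 20.3 CPM against 31.7 ± 2.74 CPM among the exceptions.

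Core housekeeping genes differed least. Of 41 nuclear genes of the respiratory chain, 4 were called (9.76%), and of 75 ribosomal protein genes 12 (16%), both under the share of all genes. With library totals as the scale the direction of these calls changed its balance: ribosomal protein genes went from 7 higher in MDA-MB-468 and 5 in the other to 3 and 10. RPS2, a protein of the small subunit, had 1068 ± 48.5 CPM against 2511 ± 342 CPM, RPL4, of the large subunit, 1117 ± 81.7 CPM against 2497 ± 242 CPM and RPS16 751 ± 48.2 CPM against 265 ± 35.6 CPM. Fatty acid oxidation genes were called for 10 of 27, with DECR1, a reductase for unsaturated fatty acids, at 24.9 ± 2.93 CPM against 0.171 ± 0.0603 CPM and CPT1A, the carnitine transferase of liver type, at 299 ± 32.3 CPM against 46.6 ± 1.85 CPM. Of the mitochondrially encoded genes, MT-ND4 at 10818 ± 569 CPM against 5159.6 ± 587 CPM was called, but not with library totals as the scale, and MT-ND6, the one gene of the list on the other strand, had 47.5 ± 3.32 CPM against 116 ± 12.1 CPM.

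Heat shock and cell death genes were called in both directions. Of the chaperones, 17 of 28 were not called. HSPA8, the constitutive HSP70, had 4780, 4733 and 5019 CPM against 656, 623 and 636 CPM, a log2 difference of -2.92 ± 0.08. HSPB8, a small heat shock protein, had 0.165 ± 0.197 CPM against 69.7 ± 3.06 CPM and the inducible HSPA1A 139 ± 24.0 CPM against 443 ± 49.2 CPM, whose reads may be shared with its copy HSPA1B (76.8 ± 9.65 CPM against 278 ± 32.3 CPM). Of 30 BCL2 family and death receptor genes, 17 were called, 10 of them higher in MDA-MB-468 and 7 in the HCC1187-labelled libraries, or 8 and 8 with library totals as the scale. TNFSF10, the death ligand TRAIL, had 64.4 ± 7.06 CPM against 0.573 ± 0.229 CPM, PMAIP1, which encodes NOXA, 18.3 ± 1.25 CPM against 214 ± 21.3 CPM and BCL2L1, which encodes BCL-XL, 94.8 ± 5.09 CPM against 23.9 ± 1.74 CPM. Of the metallothioneins and zinc transporters, MT2A had 186 ± 34.7 CPM against 29.8 ± 6.69 CPM and the zinc importer SLC39A10 11.9 ± 2.12 CPM against 75.3 ± 4.92 CPM.

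**Figure D3:**
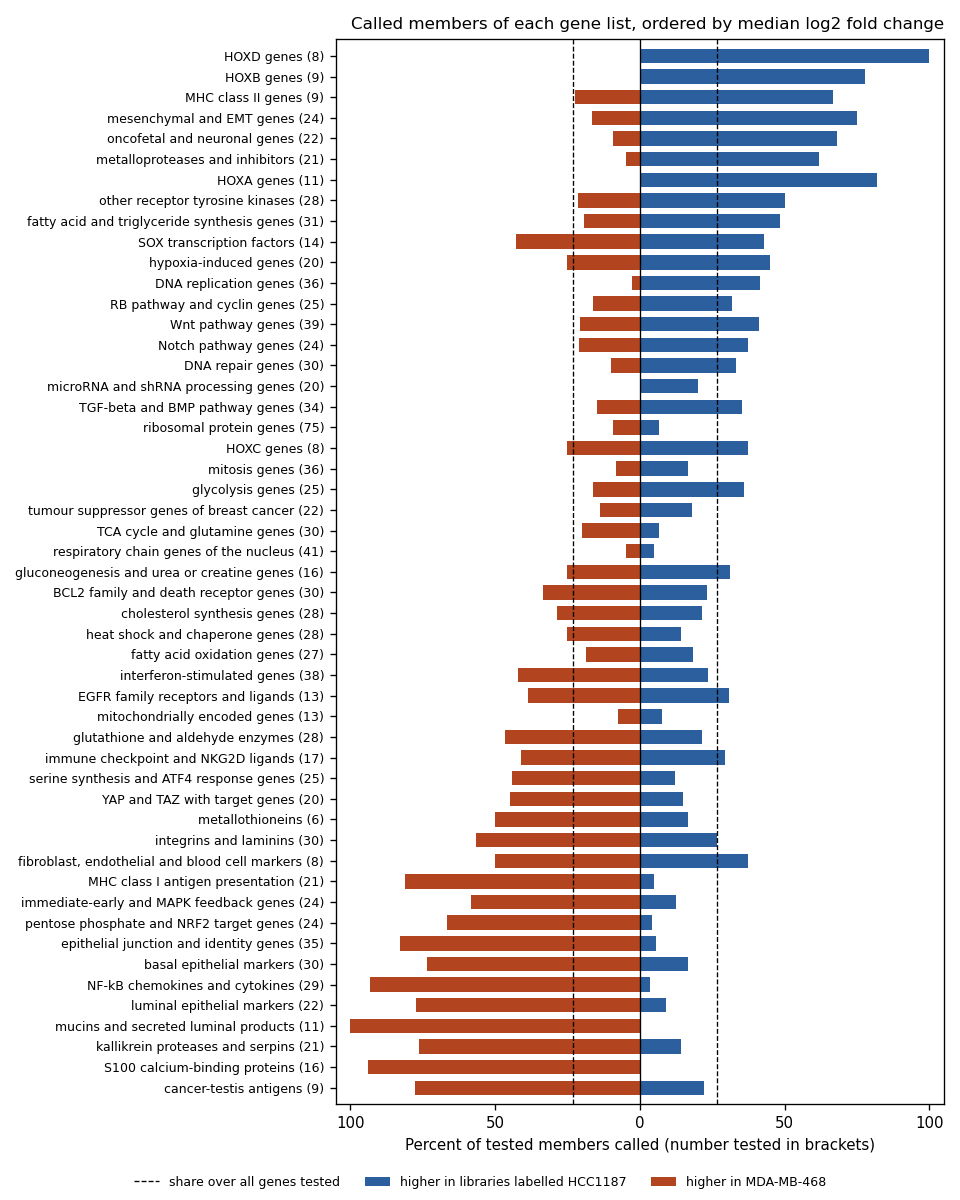
For each of the 51 gene lists, the share of tested members called higher in MDA-MB-468 (left) and in the HCC1187-labelled libraries (right), in percent, ordered by median log2 difference; dashed lines mark the shares over all genes tested, 23% and 26.7%. Epithelial, S100, mucin and NF-kB lists extend to the left, HOXA, HOXB and HOXD to the right, and ribosomal and respiratory chain lists stay short on both sides.

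Among all protein-coding genes with at least 20 CPM in the higher line, ranked by fitted log2 difference, the 12 first in favour of MDA-MB-468 were S100A7, KLK5, CASP14, RARRES1, KRT19, S100A6, KRT5, MAGEA3, S100A9, KRT81, VTCN1 and KRT7. Each had at most 3 counts in the HCC1187-labelled libraries, and bounds ran from at least 2194-fold for VTCN1 to at least 7682-fold for S100A7 where no count was seen. The 12 first in favour of the HCC1187-labelled libraries were NID1, EEF1A2, BEX3, ARMCX3, COL2A1, SLIT2, DTNA, CDH2, CADM1, TENM3, FBN2 and TXNIP. COL2A1, the collagen of cartilage and a target of SOX9 in chondrocytes, had 0 counts in MDA-MB-468, where SOX9 was the higher, and 162, 155 and 171 CPM in S7 to S9. TXNIP, an arrestin-like protein that responds to glucose, had 0 counts against 129, 134 and 103 CPM, at least 982-fold higher. FBN2, a fibrillin of developing tissues, had 0 counts against 124 ± 7.55 CPM, CADM1, a cell adhesion molecule, 0 counts against 134 ± 11.99 CPM and TENM3, a teneurin of synapse formation, 0 counts against 126 ± 4.05 CPM. ARMCX3 and DTNA had 0 counts against 185 ± 11.1 CPM and 0 counts against 144 ± 10.8 CPM. Where a line had 0 counts the fitted value depends on the prior count of the fit, so the order within these lists, and which genes of this kind fall just inside them, carries no weight: FKBP10, described above, is outside, although its ratio is 7456 (95% interval 1338 to 294480).

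The long non-coding RNAs with the largest differences included known cancer transcripts. In favour of MDA-MB-468 they were MIR205HG, the host of an epithelial microRNA, with 64.0 ± 15.7 CPM against 0 counts, UCA1, first described in urothelial carcinoma, with 46.7 ± 4.75 CPM against 0 counts, LINC01133 with 35.3 ± 7.36 CPM against 0 counts, SFTA1P with 24.4 ± 2.74 CPM against 0 counts, LINC02015 with 21.0 ± 2.65 CPM against 0 counts and AFAP1-AS1 with 214 ± 15.5 CPM against 0.137 ± 0.0596 CPM. AFAP1, the gene opposite AFAP1-AS1, was not called, at 67.9 ± 13.7 CPM against 46.0 ± 2.001 CPM. In favour of the HCC1187-labelled libraries they were MAGI2-AS3 with 0 counts against 39.7 ± 5.07 CPM, HAGLR of the HOXD cluster with 0 counts against 24.9 ± 0.569 CPM, LINC02381 with 0.602 ± 0.408 CPM against 36.3 ± 4.63 CPM, MIR503HG with 1.12 ± 0.246 CPM against 46.7 ± 6.69 CPM, SLC9A3-AS1 with 7.01 ± 0.597 CPM against 94.8 ± 4.62 CPM and SLC16A1-AS1 with 3.22 ± 1.02 CPM against 36.9 ± 3.20 CPM. The monocarboxylate transporter gene SLC16A1, opposite the last, had 71.0 ± 1.13 CPM against 309 ± 10.8 CPM, and reads of such antisense pairs cannot be told apart without the strand setting.

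Whole chromosomes were shifted as well. Relative to the median of all genes, the median log2 difference was -0.74 ± 0.04 on chromosome 19 and -0.65 ± 0.05 on chromosome 11, towards MDA-MB-468, and 0.57 ± 0.02 on chromosome 14, 0.56 ± 0.05 on chromosome 17, 0.50 ± 0.03 on chromosome 12 and 0.49 ± 0.03 on chromosome 15, towards the HCC1187-labelled libraries (± SD over libraries). On chromosome 19, 444 of 1109 tested genes were higher in MDA-MB-468 and 162 in the HCC1187-labelled libraries. That chromosome is rich in zinc finger genes and in GC. Its 237 tested genes with a ZNF symbol had a median log2 difference of -0.77 and the other 872 genes -0.63, whereas 256 ZNF genes elsewhere had 0.34. With the median of genes of like GC content taken off each gene, chromosome 19 stood at -0.70, chromosome 11 at -0.59, chromosome 14 at 0.54 and chromosome 17 at 0.61.

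**Figure D4:**
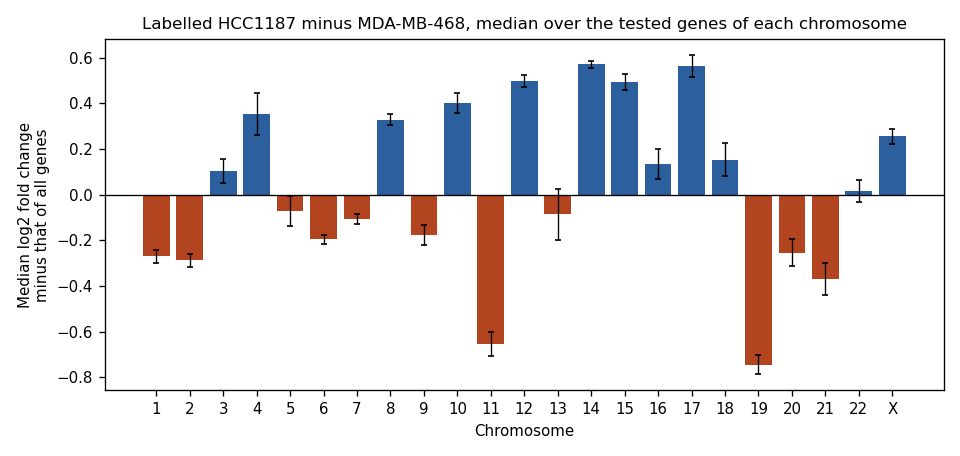
Median log2 difference (HCC1187-labelled minus MDA-MB-468) of the tested genes of each chromosome, relative to the median of all tested genes; error bars are the SD over libraries. Chromosomes 19 and 11 lie lowest and chromosomes 14 and 17 highest.

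Stretches of at least 8 consecutive tested genes called in the same direction numbered 34, the minimum again being chosen after the values were seen. Beside those already given, the longest were 14 genes on chromosome 18 (11851396 to 13125052), from CHMP1B to CEP192, higher in MDA-MB-468, where CHMP1B, a membrane scission factor, had 109 ± 8.43 CPM against 33.5 ± 2.14 CPM. The keratin stretch of chromosome 12 held 13 genes (52069246 to 52952901), from ATG101 to KRT18, and that of chromosome 17 held 9 (40921430 to 41624842). In the other direction the HOXA cluster on chromosome 7 gave 13 genes (27128507 to 27207259), from HOXA4 to HOTTIP. A stretch on chromosome 4 (73571550 to 74794686) placed the chemokine genes CXCL8, CXCL1, CXCL3 and CXCL2 beside the EGFR ligand genes AREG and BTC, all higher in MDA-MB-468. CXCL1 had 33.1 ± 2.74 CPM against 3 counts in all and BTC 3.26 ± 0.914 CPM against 1 count in all.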

How the data were processed

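RNA was extracted with TRIzol 48 h after transfection and sequenced from TruSeq Stranded mRNA libraries as paired reads of 76 bases, per the labels' protocols. The submitters' processing notes name HISAT2 2.1.0 among the tools, with featureCounts 2.0.0, Trimmomatic 0.39 and SAMtools, for quality control FastQC 0.11.9 and MultiQC 1.11, and as genome build GRCh38. Neither the strand setting nor the annotation release is stated in these notes or labels. The authors deposited raw counts per gene in one table per cell line, with 60675 genes each and 3 sequencing lanes per library in columns of their own.

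The lane columns of a library share its library number, but lanes were not summed. Only lane 1 of each library was used, and totals therefore measure 1 lane. Of 36 count columns 6 were used, and 30 columns (further lanes and knockdown libraries) were not used. The columns carry a library number that does not name a sample, so each was assigned to its group only. The tables were counted separately by the authors, and counts were joined by gene identifier.

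Genes were filtered with filterByExpr (minimum count 10, minimum total 15), scaled with TMM and tested in edgeR 4.0.16 (R 4.3.3) by its quasi-likelihood test, with Benjamini-Hochberg adjustment over all 15592 genes tested. The test was checked on simulated data. A call needed an adjusted p under 0.05 and an absolute log2 difference of at least 1. Alternatives were DESeq2 1.42.0, limma-voom (limma 3.58.1), other scalings, filters and thresholds, a fold minimum inside the test, and leaving out each library.

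The 51 lists hold 1364 genes that matched a row, of which 1179 were tested and 687 called, and 2 further entries that matched none. The comparison and the lists were chosen with earlier results of these data known. Named genes are the 12 protein-coding genes and 6 long non-coding RNAs of largest difference in each direction (by fitted value, with at least 20 CPM in the higher line, and without clone names, XIST and Y-linked genes), the 8 silent genes of highest CPM in each direction, SOX9, SOX9-AS1 and list members, called ones of large change and uncalled ones of high CPM first. Neighbours of a named locus or stretch were added after their values were seen. Positions of 58502 genes are from GENCODE v29 and promoters from RefSeq. Gene lengths for the ranking per length are those in the deposited tables. Some list members are not reported here by name.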

Additional observations from a re-analysis of the deposited data

How the results depend on the processing

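Of 7747 called genes, 4157 were higher in the HCC1187-labelled libraries and 3590 in MDA-MB-468. With no fold minimum the calls were 13108 (6803 and 6305) and with a 4-fold minimum 4288 (2404 and 1884), and list members called went from 687 to 1062 and 440. Asking for no count at all, in place of at most 3, left 130 genes silent in the HCC1187-labelled libraries and 244 in MDA-MB-468. The split was 4112 and 3604 with DESeq2, 4165 and 3593 with limma-voom, 4138 and 3612 with RLE scaling and 4876 and 2988 with library totals. It was 3558 and 3046 with the fold minimum inside the test. With no filter on low counts it was 5720 and 4998, but of 30246 genes tested in place of 15592. Leaving out each library gave 7994 to 8162 calls (4225 to 4427 and 3660 to 3770) and 692 to 700 list members. Leave-one-out ranges of the silent genes and of positions were added after the data were seen. Silent genes ran from 256 to 300 in the HCC1187-labelled libraries and from 385 to 429 in MDA-MB-468. Medians relative to all genes ran from -0.66 to -0.63 on chromosome 11, 0.54 to 0.59 on chromosome 14, 0.53 to 0.58 on chromosome 17, -0.76 to -0.72 on chromosome 19 and -4.24 to -4.15 around EGFR. With the fold minimum inside the test, FOXC1, GRB10, HBEGF, MT-ND4, NOTCH4, PDGFRB, RRM2 and S100A10 were not called. No named gene reversed under any of these settings. GATA3 and DICER1, uncalled above, lay near 2-fold and were called under some of them.

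No paired analysis was possible because the count columns carry library numbers that match no replicate number of the labels and the lines share no source. Summed lanes were not run, because a group has more lane columns than samples and no label ties a lane to a sample, nor were chromosome arms, for want of a centromere table. A single lane of 7906714 to 9790529 counts limits statements on genes of a few counts, and 0 counts do not show absence.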
